A study of Homo sapiens with 12 samples.

Results

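BOC is a cell-surface co-receptor of the Hedgehog pathway, and it was described here together with the other core genes of that pathway in HEK293T lines that carry different forms of EZH2. The genes were taken by symbol from the table of counts, and all 9 that were asked for had a row among its 14438 genes: the co-receptors BOC, CDON and GAS1, the receptor PTCH1, the transducer SMO, the inhibitor SUFU and the transcription factors GLI1, GLI2 and GLI3. All 9 passed the filter on low counts. HEK293T is a human embryonic kidney line, and the study used it as an isogenic background for 4 lines made by lentiviral infection and blasticidin selection. RNA was sequenced from 3 samples of each: EZH2 WT, the gain-of-function (GOF) mutants EZH2 Y641F and EZH2 A677G, and the loss-of-function (LOF) double mutant EZH2 H689A/F667I. All lines kept their endogenous EZH2, were grown in DMEM with fetal bovine serum, and were meant to be monoclonal after selection, so that a difference between clones and an effect of the introduced EZH2 cannot be told apart. The control for each mutant line was the line with introduced EZH2 WT, which was infected and selected like the mutants. Comparisons of the GOF lines with each other, and of their mean with the LOF line, were made without that control. The study calls the samples biological replicates without saying how they were grown apart, so the p-values measure the spread between these samples, part of which may be technical.

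EZH2 is the catalytic subunit of Polycomb repressive complex 2, which methylates lysine 27 of histone H3 and thereby marks genes for repression, with a known preference for promoters rich in CpG. In the Hedgehog pathway, a ligand such as SHH binds PTCH1 at the cell surface with the help of BOC, CDON and GAS1, and PTCH1 then no longer holds back SMO. Active SMO, acting in the primary cilium, frees GLI2 and GLI3 from SUFU, and the genes that GLI proteins switch on include GLI1, PTCH1 and HHIP themselves. GLI1 and PTCH1 are therefore widely read as the output of the pathway, while BOC, CDON and GAS1 stand at its entry.

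BOC was the only 1 of the 9 genes that passed the test in both GOF lines. It fell to 5.56 ± 0.527 and 5.39 ± 0.621 CPM (SD, n = 3) in EZH2 Y641F and EZH2 A677G from 8.59 ± 0.335 in EZH2 WT, and was at 8.48 ± 0.226 in the LOF line. GAS1 rose by 11.7% in EZH2 A677G. None of the other 7 genes, which hold the receptor, the transducer, the inhibitor and all GLI factors, passed the test in any of the 5 comparisons made. CPM are counts per 1000000 of the TMM-adjusted library size, and a gene was taken as changed where edgeR's quasi-likelihood test gave a Benjamini-Hochberg adjusted p-value under 0.05 over the 14263 genes tested.

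The RefSeq promoter windows of BOC are shown first, both of which begin after the GENCODE start of BOC at 113211003. Beside them is a window of CDON, the closest relative of BOC and a gene that did not pass the test. Windows of GAS1, the other gene that passed, and of PTCH1 follow, the latter the window among those of the members that holds a GLI motif. Other windows of CDON and PTCH1 are not printed. Each window is 300 bases of RefSeq's GRCh38.p14, from 250 bases before a start site to 50 after it, on the strand of the gene. Capitals mark the GLI binding motif GACCACCCA, searched on both strands.

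BOC, chr3:113211866-113212165, plus strand: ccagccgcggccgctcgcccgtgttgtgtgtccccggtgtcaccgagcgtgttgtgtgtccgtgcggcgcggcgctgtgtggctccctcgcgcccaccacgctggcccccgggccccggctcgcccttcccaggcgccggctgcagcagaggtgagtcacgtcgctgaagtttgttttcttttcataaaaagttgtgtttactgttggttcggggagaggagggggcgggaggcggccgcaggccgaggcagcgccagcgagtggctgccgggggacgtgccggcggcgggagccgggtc
BOC, chr3:113211307-113211606, plus strand: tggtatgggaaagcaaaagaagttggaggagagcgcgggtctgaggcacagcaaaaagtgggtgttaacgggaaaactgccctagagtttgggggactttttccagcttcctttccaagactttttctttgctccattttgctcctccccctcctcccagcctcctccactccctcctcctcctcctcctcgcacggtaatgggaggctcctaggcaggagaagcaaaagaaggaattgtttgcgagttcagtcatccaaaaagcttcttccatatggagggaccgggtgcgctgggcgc
CDON, chr11:126063252-126063551, minus strand: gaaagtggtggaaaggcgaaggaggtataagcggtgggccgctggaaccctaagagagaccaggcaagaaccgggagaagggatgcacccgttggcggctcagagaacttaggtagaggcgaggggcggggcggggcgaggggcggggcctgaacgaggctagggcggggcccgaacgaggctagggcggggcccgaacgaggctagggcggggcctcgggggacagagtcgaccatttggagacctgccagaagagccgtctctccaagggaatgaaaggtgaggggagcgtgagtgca
GAS1, chr9:86947457-86947756, minus strand: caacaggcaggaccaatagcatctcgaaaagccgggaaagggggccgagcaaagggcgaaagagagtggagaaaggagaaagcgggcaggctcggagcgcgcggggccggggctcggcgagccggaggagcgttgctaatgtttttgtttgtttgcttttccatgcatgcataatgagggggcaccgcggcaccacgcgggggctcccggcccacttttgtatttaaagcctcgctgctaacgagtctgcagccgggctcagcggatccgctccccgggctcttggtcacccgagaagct
PTCH1, chr9:95509217-95509516, minus strand: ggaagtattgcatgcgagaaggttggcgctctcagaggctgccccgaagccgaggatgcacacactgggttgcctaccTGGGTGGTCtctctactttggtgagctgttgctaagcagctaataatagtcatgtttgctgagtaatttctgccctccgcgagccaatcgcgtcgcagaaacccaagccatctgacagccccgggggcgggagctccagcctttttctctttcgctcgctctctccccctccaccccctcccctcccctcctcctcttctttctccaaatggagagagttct

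RefSeq windows were found for 7 of the 9 genes, 15 windows in all. GLI1 and GLI3 had no matching entry and are only named. The BOC windows differed in composition: the window at 113211866 held 36 CpG dinucleotides, and 88.7% of the 35116 windows in the table held that many or fewer. The window at 113211307 held 9, below the median of 14 over all windows. The printed CDON window held 23 CpG and that of GAS1 held 26. The CDON windows not printed held 35 and 4, so CDON too had a window rich and a window poor in CpG. Whether CpG content has a part in the result of BOC was not tested. The PTCH1 window held 13 CpG. It held the GLI motif once, 172 bases before the start site, and it was the only 1 of the 15 windows with these letters, against 83 of all 35116 windows (0.236%). A match is a run of letters and not a measured site, and a window without it says only that these letters are not in it.

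BOC lies on chromosome 3 of GRCh38, from 113211003 to 113287459 on the plus strand. In EZH2 WT its level was 8.90, 8.62 and 8.24 CPM, and in the LOF line 8.23, 8.56 and 8.66 CPM. In EZH2 Y641F it was 6.16, 5.33 and 5.18 CPM and in EZH2 A677G 6.10, 5.04 and 5.02 CPM. All 6 GOF samples lay below all 6 others, the highest GOF sample at 6.16 CPM and the lowest of the rest at 8.23. Such a separation was found for 5.41% of all genes tested, and for 1 of these 9. The values rest on between 183 and 336 counts per sample.

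BOC fell by 0.63 on the log2 scale in EZH2 Y641F (SE 0.117, adjusted p = 0.000289 by edgeR) and by 0.67 in EZH2 A677G (SE 0.117, adjusted p = 0.000113), which are decreases of 35.3% and 37.1%. It was the 1 member called lower of 9 in each GOF line, where 5.59% and 6.48% of all genes tested were called lower. In the LOF line the log2 fold change was -0.02, with a 95% confidence interval from -0.25 to 0.21 (adjusted p = 0.983). Between EZH2 Y641F and EZH2 A677G the difference was 0.04 with an interval from -0.20 to 0.29 (adjusted p = 0.967), so a difference between the GOF lines inside that range could not be detected. The mean of the GOF lines was lower than the LOF line by a log2 fold change of -0.63 (SE 0.0998, adjusted p = 1.48e-05), which tests the difference between GOF and LOF directly. In that comparison 8.75% of all genes were called lower.

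The decrease of BOC was called in all 12 alternative fits for each GOF line, in all 11 for GOF against LOF, and in every fit without a sample. BOC is on the list of targets that the study drew from these same samples together with chromatin measurements, so its direction here is not independent evidence. CFAP44, a ciliary gene on the opposite strand, overlaps BOC, and whether strand was used in counting is not stated. Its log2 fold changes were 0.07 in EZH2 Y641F (adjusted p = 0.799) and 0.03 in EZH2 A677G (adjusted p = 0.912). In bulk samples, fewer cells that express BOC and less BOC RNA per cell cannot be told apart.

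**Figure D1:**
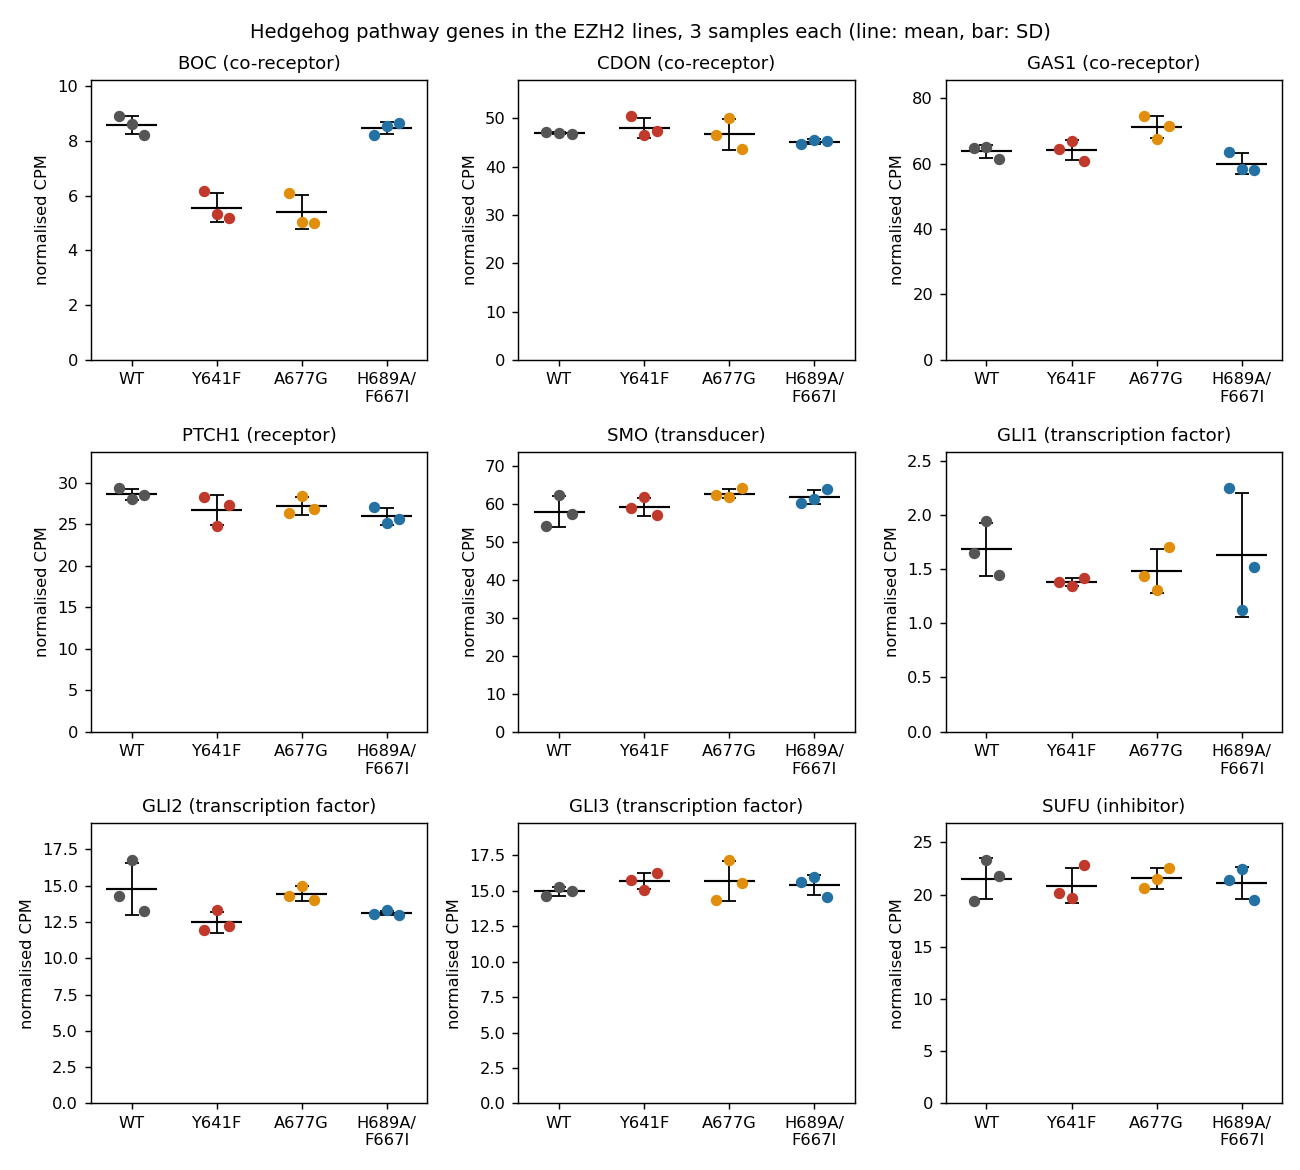
Normalised CPM of the 9 Hedgehog pathway genes in each of 12 samples, 1 panel a gene with its own axis from 0; points are samples, lines are means and bars are SD (n = 3). The BOC points of EZH2 Y641F and EZH2 A677G lie between 5.02 and 6.16, below those of EZH2 WT and EZH2 H689A/F667I, which lie between 8.23 and 8.90.

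The other co-receptors did not follow BOC. CDON, an immunoglobulin-superfamily protein built like BOC, lies on chromosome 11 from 125955796 to 126063335 on the minus strand. It was at 47.1, 46.9 and 46.8 CPM in EZH2 WT, at 50.4, 46.5 and 47.3 in EZH2 Y641F and at 46.5, 50.1 and 43.7 in EZH2 A677G. In the LOF line it was at 44.7, 45.6 and 45.3 CPM. The samples of each GOF line overlapped those of EZH2 WT. All LOF samples lay below those of EZH2 WT, with an unadjusted p of 0.304 by edgeR. How many of all genes separate like that between 1 line and another was not counted, for CDON or for the genes below. CDON had a log2 fold change of 0.04 in EZH2 Y641F (95% confidence interval -0.07 to 0.14, adjusted p = 0.79) and -0.01 in EZH2 A677G (-0.11 to 0.10, adjusted p = 0.972), so the intervals leave out a decrease of the size seen for BOC. With between 1459 and 2122 counts per sample, CDON was measured more precisely than BOC.

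GAS1, a GPI-anchored co-receptor first named for its expression in growth arrest, lies on chromosome 9 from 86944362 to 86947506 on the minus strand. Its level was 64.8, 65.2 and 61.5 CPM in EZH2 WT and 64.6, 67.0 and 60.9 in EZH2 Y641F. It was 74.6, 67.6 and 71.7 CPM in EZH2 A677G, while the LOF samples were at 63.7, 58.4 and 58.0. All EZH2 A677G samples lay above those of EZH2 WT, of EZH2 Y641F and of the LOF line. The share of all genes with such a separation was not counted. The increase in EZH2 A677G was 0.16 (SE 0.0494, adjusted p = 0.034), and GAS1 was 1 of 9 members called higher, where 2.07% of all genes were. It was lost with upper-quartile factors (0.14, adjusted p = 0.0736) and in 5 of 6 fits without a sample, with adjusted p between 0.0216 and 0.219, and leaving out any EZH2 WT sample or replicate 1 or 3 of EZH2 A677G raised the adjusted p above 0.05.

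In EZH2 Y641F the log2 fold change of GAS1 was 0.01 (adjusted p = 0.964), where 2.09% of all genes were called higher, and the direct difference between the GOF lines was -0.15 (SE 0.0491, adjusted p = 0.45), which did not pass the test. The mean of the GOF lines was higher than the LOF line by 0.17 (SE 0.0434, adjusted p = 0.00526), in a comparison in which 3.81% of all genes were called higher. Without replicate 2 or 3 of the LOF line the adjusted p was 0.0539 and 0.0528. GOF and LOF samples overlapped.

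PTCH1, the receptor that restrains SMO and is itself induced by the pathway, ranged from 28.1 to 29.4 CPM in EZH2 WT, from 24.8 to 28.3 in EZH2 Y641F and 26.4 to 28.5 in EZH2 A677G, while the LOF samples ranged from 25.1 to 27.1. None of the differences passed the test. The log2 fold changes were -0.10, -0.07 and -0.14 in EZH2 Y641F, EZH2 A677G and the LOF line (adjusted p = 0.447, 0.587 and 0.531). The LOF samples of PTCH1 all lay below those of EZH2 WT, as those of CDON did. The unadjusted p of the PTCH1 difference was 0.0339 by edgeR. SMO, the membrane protein that transmits the signal, ranged from 54.2 to 62.4 CPM in EZH2 WT and from 61.8 to 64.2 in EZH2 A677G, a log2 fold change of 0.11 (95% confidence interval 0.01 to 0.21, unadjusted p = 0.0299, adjusted p = 0.179). SUFU, which holds GLI proteins in the cytoplasm, was between 19.4 and 23.3 CPM in the 12 samples, and its log2 fold changes were -0.04, 0.00 and -0.03 in the same order of lines.

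The GLI factors differed in level and in how well they could be measured. GLI1, the activator that reports pathway activity, had only 44 to 83 counts per sample, between 1.12 and 2.25 CPM. Its log2 fold change of -0.29 in EZH2 Y641F had an interval from -0.80 to 0.23 (adjusted p = 0.599), so that a decrease like that of BOC was not excluded and could not be detected at this depth. Its EZH2 Y641F samples all lay below those of EZH2 WT. GLI2, the main activator in most tissues, was at 14.3, 16.8 and 13.3 CPM in EZH2 WT and at 11.9, 13.3 and 12.2 in EZH2 Y641F. The groups overlapped, and its log2 fold change of -0.25 did not pass the test (SE 0.0886, unadjusted p = 0.0078, adjusted p = 0.0802). Without replicate 3 of EZH2 WT the value was -0.32 with an adjusted p of 0.0354. In EZH2 A677G it was -0.04 (adjusted p = 0.875) and in the LOF line -0.18 (adjusted p = 0.62), and the direct difference between EZH2 Y641F and EZH2 A677G was -0.21 (unadjusted p = 0.0207, adjusted p = 0.648). GLI3, which acts mainly as a repressor without ligand, was between 14.4 and 17.2 CPM in all samples, and its log2 fold changes were 0.07, 0.07 and 0.04.

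Apart from GLI1, the intervals of the members that did not pass the test ran on the log2 scale from -0.43 to 0.23 for EZH2 Y641F, from -0.21 to 0.23 for EZH2 A677G and from -0.36 to 0.21 for the LOF line. The lower bounds are decreases of 25.7%, 13.8% and 21.9%. In the LOF line 0 of the 9 genes passed edgeR's test, with PTCH1 at an unadjusted p under 0.05 and none called by the exact test, DESeq2 or limma voom. There 0.161% of all genes were called lower and 0.14% higher. Between the GOF lines 0 of 9 passed as well, with GAS1 and GLI2 at an unadjusted p under 0.05 and none called by those other tools, and 0.014% of all genes were called lower and 0.0701% higher. The median log2 fold change of the 9 genes was -0.04 for EZH2 Y641F, -0.01 for EZH2 A677G and -0.05 for the LOF line, where the median of all genes tested was 0.00 in each.

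**Figure D2:**
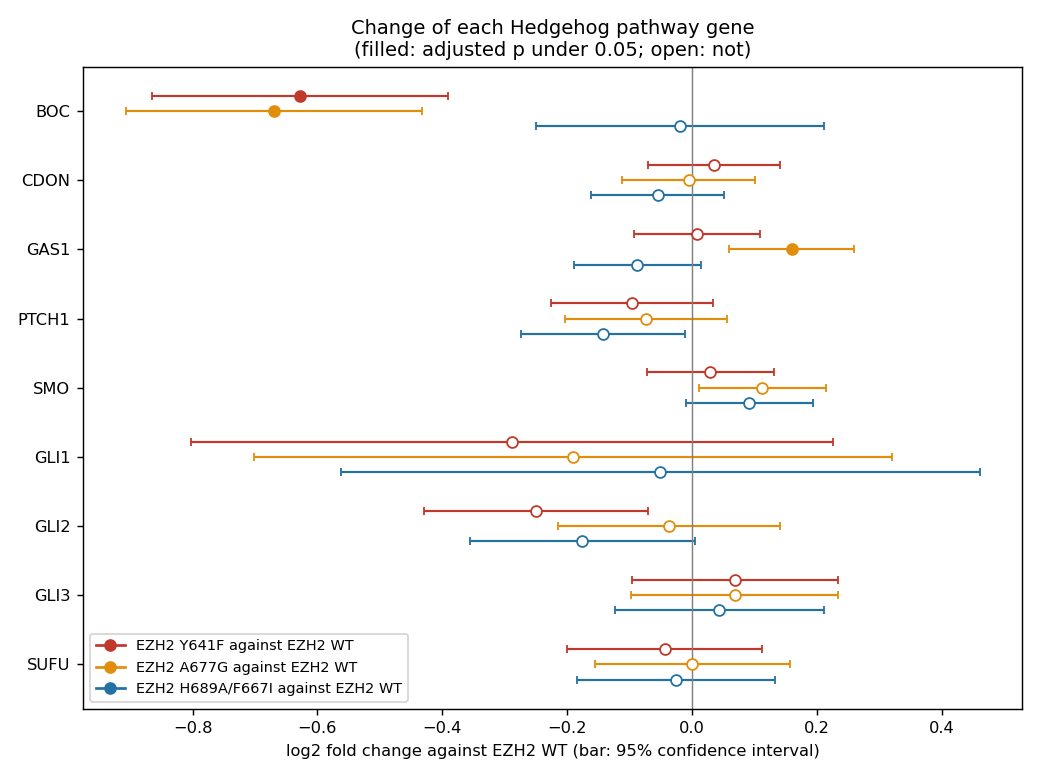
Log2 fold change of the 9 Hedgehog pathway genes against EZH2 WT (horizontal axis) in the mutant lines (EZH2 Y641F and EZH2 A677G, GOF; EZH2 H689A/F667I, LOF), with bars for the 95% confidence interval of edgeR's quasi-likelihood fit; filled points passed an adjusted p of 0.05. BOC is at -0.63 and -0.67 in the GOF lines and at -0.02 in the LOF line, GAS1 is filled only in EZH2 A677G, and the widest intervals are those of GLI1.

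Levels of different genes were compared per kilobase of annotated exon. On that scale GAS1 was the most abundant member in EZH2 WT, at 20.3 ± 0.649 CPM per kilobase (SD, n = 3), and SMO followed at 12.2 ± 0.871. SUFU was at 3.13, CDON at 2.36, GLI2 at 1.92, PTCH1 at 1.66 and GLI3 at 1.08. BOC was the last but for GLI1, at 0.831 ± 0.0324 against 0.368 ± 0.0544 CPM per kilobase. Among the co-receptors, GAS1 and CDON therefore gave more RNA per length than BOC in every line. The order was the same in all 4 lines, and the ranges of neighbours did not overlap, except for GLI2 and PTCH1 in EZH2 Y641F. In both GOF lines BOC came closer to GLI1, at 0.538 and 0.521 CPM per kilobase. With the length of the longest transcript in place of all exons, CDON stood above SUFU and PTCH1 above GLI2 in EZH2 WT.

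**Figure D3:**
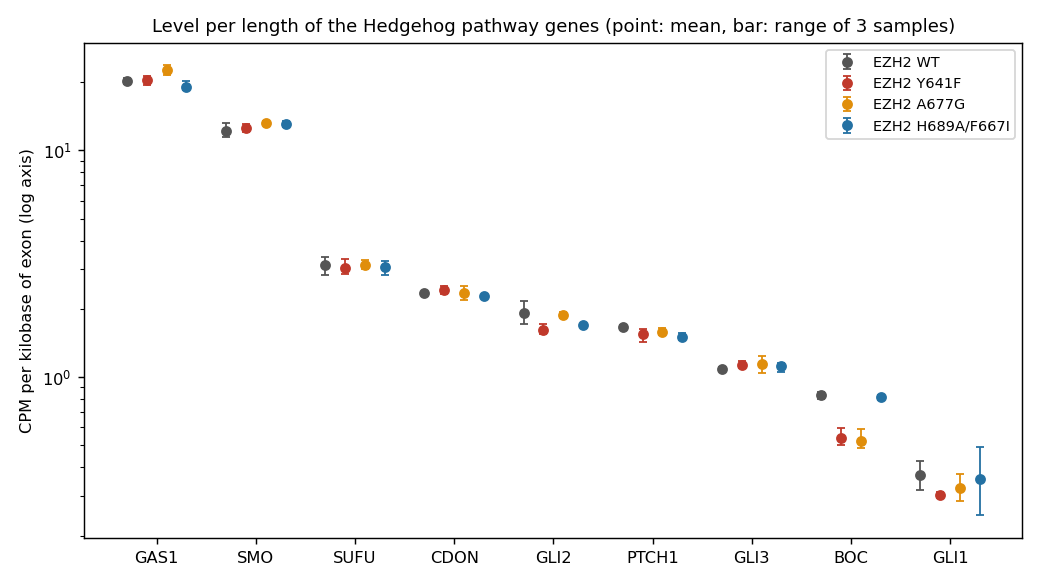
Level of each gene in CPM per kilobase of exon (log axis) in the 4 EZH2 lines; points are means and bars the range of 3 samples. GAS1 is at the top with 20.3 and GLI1 at the bottom with 0.368 in EZH2 WT, and BOC is at 0.538 and 0.521 in the GOF lines against 0.831 in EZH2 WT.

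The pathway was followed further with a list of 73 genes around the members. The list was chosen with earlier results of these data known, so its shares beside those of all genes are a description and not a test. Of these, 66 were in the table and 65 were tested, and 7 (SHH, IHH, DHH, SCUBE2, EVC2, FOXC2 and MYCN) were not analysed here, which leaves no ligand among the genes analysed. In EZH2 Y641F 9 of the 65 (13.8%) were lower and 3 (4.62%) higher, beside 5.59% and 2.09% of all genes tested. EZH2 A677G had 8 lower (12.3%) and 3 higher (4.62%), beside 6.48% and 2.07%. The LOF line had 1 lower and 1 higher (1.54% each), beside 0.161% and 0.14%. Between the GOF lines none of the 65 passed edgeR's test, and 5 had an unadjusted p under 0.05. Against the LOF line, 10 were lower in the GOF lines (15.4%) and 2 higher (3.08%), beside 8.75% and 3.81% of all genes. The list medians were -0.02 for EZH2 Y641F, -0.01 for EZH2 A677G, -0.01 for the LOF line and 0.02 for GOF against LOF. All 6 GOF samples lay below the others for 8 of the 65 genes (12.3%), where 5.41% of all genes did. The study drew its own lists of changed genes from these same samples, so the direction of a called gene that is also on them is not independent evidence.

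Of 5 genes that act at reception of the ligand beside the members, 2 fell and 1 rose in EZH2 Y641F, and 3 fell and 1 rose in EZH2 A677G. Of all genes tested, 5.59% were lower and 2.09% higher in the former line, and 6.48% and 2.07% in the latter. HHIP, a membrane protein that binds and sequesters Hedgehog ligands and is induced by the pathway, was at 3.11, 3.44 and 4.68 CPM in EZH2 WT, at 2.28, 2.00 and 1.66 in EZH2 Y641F, and at 1.53, 1.74 and 1.95 in EZH2 A677G. The LOF samples were at 2.87, 2.95 and 2.79 CPM. It fell by 0.92 (SE 0.195, adjusted p = 0.00152) in EZH2 Y641F and by 1.11 (SE 0.198, adjusted p = 0.000156) in EZH2 A677G. The LOF samples lay between, with a log2 fold change of -0.38 that did not pass the test (adjusted p = 0.619). HHIP-AS1, on the opposite strand, had 12 to 47 counts, also fewer in the GOF lines than in EZH2 WT, and the reads of the pair cannot be assigned with certainty where the use of strand is not stated.

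GPC5, a heparan sulfate proteoglycan known to aid binding of the ligand, was at 3.06, 5.15 and 3.77 CPM in EZH2 WT, at 2.52, 2.52 and 2.10 in EZH2 Y641F, and at 2.24, 2.02 and 2.47 in EZH2 A677G. The LOF samples were at 4.36, 4.66 and 4.53 CPM. It fell by 0.75 (adjusted p = 0.00574) and by 0.84 (adjusted p = 0.00174) in the GOF lines. Both calls were lost without replicate 2 of EZH2 WT, with values of -0.52 and -0.61. GPC3, a glypican known to compete for the ligand, rose by 18.0% in EZH2 Y641F (adjusted p = 0.0054) and by 16.7% in EZH2 A677G (adjusted p = 0.00905), and was also higher in all LOF samples than in EZH2 WT, where its value of 0.23 did not pass the test (adjusted p = 0.0815). The EZH2 A677G call was lost without replicate 2 of EZH2 WT or replicate 1 of EZH2 A677G, with values down to 0.17. LRP2, a large endocytic receptor for SHH, fell by 0.39 in EZH2 A677G (adjusted p = 0.00446), a call lost without replicate 2 of EZH2 WT (-0.31, adjusted p = 0.0718). It was at -0.25 in EZH2 Y641F (adjusted p = 0.0864).

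Of 10 genes that relay the signal around SMO, 1 passed the test in each GOF line. As a background for this and the next groups, EZH2 Y641F had 5.59% of all genes called lower and 2.09% called higher. For EZH2 A677G the shares were 6.48% and 2.07%, and for the LOF line 0.161% of genes were called lower. A single GOF call among 7 to 11 genes is near that background. GPR161, a ciliary receptor that keeps the pathway off through cAMP, fell by 0.23 in EZH2 Y641F (SE 0.062, adjusted p = 0.0135) and by 0.25 in EZH2 A677G (SE 0.0621, adjusted p = 0.00673). Its samples were between 24.9 and 27.7 CPM in the GOF lines and between 29.1 and 32.2 in the others. The call in EZH2 Y641F was lost without replicate 1 of EZH2 WT or replicate 3 of EZH2 Y641F, with adjusted p up to 0.0883 and a value of -0.19 at the smallest. Of 9 genes of ciliary transport, IFT88, a subunit of the intraflagellar transport complex, rose by 0.37 in EZH2 A677G (adjusted p = 0.00644) and was at 0.27 in EZH2 Y641F (adjusted p = 0.0664). Of 11 kinases and scaffolds for the GLI proteins, CSNK1E, a casein kinase, was lower by 0.99 in EZH2 A677G (adjusted p = 0.00116) and by 1.06 in the LOF line (adjusted p = 0.0121). CSNK1E shares exons with a readthrough gene, ranged from 6.34 to 16.0 CPM within EZH2 Y641F alone, was not called by DESeq2 in either comparison (adjusted p = 0.101 and 0.325), and lost the LOF call without replicate 1 or 2 of EZH2 WT or replicate 1 of the LOF line (-0.75 at the smallest), so it is uncertain. ITCH, a ubiquitin ligase of the GLI turnover group of 7, rose by 9.31% in EZH2 Y641F (adjusted p = 0.0458) and lost the call in 6 of 12 alternatives, and without replicate 1 or 2 of EZH2 WT or replicate 3 of EZH2 Y641F (0.10 at the smallest).

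Of 15 genes known as targets of the pathway, 5 fell in EZH2 Y641F and 3 fell in EZH2 A677G, beside 5.59% and 6.48% of all genes called lower. None was called higher in either line, where 2.09% and 2.07% of all genes were, so that a count of 0 among 15 is near the background. SFRP1, a secreted antagonist of WNT signalling, went from 17.3, 19.5 and 16.2 CPM in EZH2 WT to 12.6, 9.45 and 10.3 in EZH2 Y641F and to 11.5, 10.1 and 11.4 in EZH2 A677G, and was at 19.2, 17.9 and 17.0 in the LOF line. It fell by 0.72 (SE 0.0959, adjusted p = 1.52e-06) and by 0.69 (SE 0.0958, adjusted p = 3.05e-06), and was called in all alternatives. JAG2, a NOTCH ligand, fell by 0.18 in EZH2 Y641F (adjusted p = 0.0215) and by 0.31 in EZH2 A677G (adjusted p = 4.79e-05). In the LOF line it was at -0.19, which did not pass the test (adjusted p = 0.124), with all LOF samples below those of EZH2 WT. CCND2, a D-type cyclin, fell by 10.6% and 10.7% (adjusted p = 0.00535 and 0.0045). Without replicate 1 of EZH2 WT both CCND2 calls were lost, and without replicate 2 of EZH2 Y641F that of EZH2 Y641F, with adjusted p of 0.0506 in EZH2 A677G and up to 0.0598 in EZH2 Y641F. The JAG2 call in EZH2 Y641F was lost without replicate 2 or 3 of EZH2 WT or replicate 3 of EZH2 Y641F, with a value of -0.14 at the smallest.

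The other calls among targets were less steady. OLIG2, a neural progenitor transcription factor, fell by 0.42 in EZH2 Y641F (adjusted p = 0.041), a call that remained past the threshold only without replicate 1 of EZH2 Y641F among the 6 fits without a sample (-0.31 at the smallest). FOXF1, a mesenchymal forkhead factor, fell by 0.28 in EZH2 Y641F (adjusted p = 0.0467), a call lost in 7 of 12 alternatives and in the same 5 fits without a sample (-0.23 at the smallest). CCND1, the other D-type cyclin, rose by 0.18 in the LOF line (adjusted p = 0.0443), a call lost in every fit without a sample (0.17 to 0.19) and, among 12 alternatives, with library totals, the replicate block and thinned counts (adjusted p up to 0.0747). IGFBP6, an inhibitor of insulin-like growth factor, had 8 to 28 counts and passed the test only between GOF and LOF. The targets are known from other tissues, and whether GLI proteins act on these genes in HEK293T was not measured here.

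Of the proteins that bind BOC and CDON, CDH2 (N-cadherin) rose by 0.15 in EZH2 Y641F (adjusted p = 0.0181) and by 0.18 in EZH2 A677G (adjusted p = 0.00426). The former call was lost without replicate 2 or 3 of EZH2 WT or of EZH2 Y641F (0.12 at the smallest). NEO1, a netrin receptor, fell by 0.16 in EZH2 Y641F (adjusted p = 0.028), a call lost in 6 of 12 alternatives and without the same 4 samples (-0.14 at the smallest), and was at -0.13 in EZH2 A677G (adjusted p = 0.0759). CDH15 (M-cadherin) was not tested: it had 0 counts in all 3 samples of EZH2 A677G and 11 to 28 in the others. The same was true in EZH2 A677G or the LOF line for 175 genes of the table, all of which were left out of the tests, so its zeros are listed as given. A count of 0 in a library allows up to 3 counts.

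**Figure D4:**
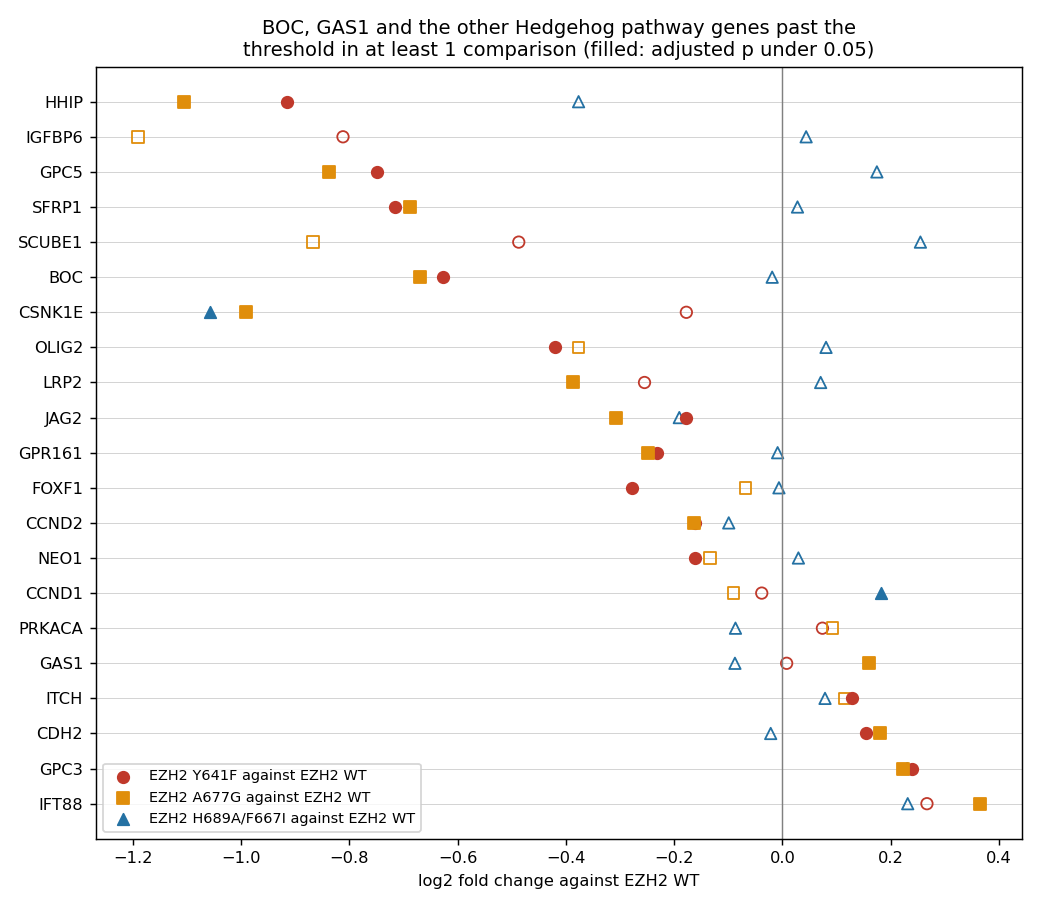
Log2 fold change against EZH2 WT (horizontal axis) of BOC, GAS1 and the other Hedgehog pathway genes called in at least 1 of 5 comparisons, for EZH2 Y641F (circles), EZH2 A677G (squares) and EZH2 H689A/F667I (triangles); filled symbols passed an adjusted p of 0.05. HHIP, GPC5, SFRP1 and BOC are filled in both GOF lines, from -0.63 to -1.11, while the filled LOF symbols are those of CSNK1E and CCND1.

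By its course over the 12 samples, BOC was most like MID2, with a Pearson r of 0.980 on log2 CPM, followed by C3orf70 (0.978), SOX21-AS1 (0.978), GALNT14 (0.974) and TPBG (0.974). MID2 is a microtubule-binding ubiquitin ligase, GALNT14 starts O-linked glycosylation and TPBG is a cell-surface glycoprotein. All 5 were lower in both GOF lines, with log2 fold changes from -0.33 to -0.97, and none passed the test in the LOF line. These genes were picked for the likeness, which is set by the step between GOF and other samples. By Spearman's rho 0 of the 5 were among the nearest. GAS1 was most like TALDO1 (Pearson r of 0.954), GNB2 (0.900) and ARHGEF2 (0.900).

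The samples held between 32137700 and 44562413 counts. EZH2, whose count joins the introduced and the endogenous transcript, was at 154 to 163 CPM in EZH2 WT, 209 to 228 in EZH2 Y641F, 165 to 182 in EZH2 A677G and 206 to 210 with the LOF mutant. Of the markers of HEK293T, 8 of 8 were in the table. Their summed level was 641.4 to 660 CPM in EZH2 WT, 575 to 587 in the LOF line, 479 to 550 in EZH2 Y641F and 456 to 495 in EZH2 A677G. The differences in the sum lay mostly in the neurofilament genes NEFM, at 180 to 192 CPM in EZH2 WT and 81.1 to 99.2 in EZH2 A677G, and NEFL, at 130 to 136 and 68.5 to 75.4. VIM was at 265.4 to 272.5 CPM in EZH2 WT and below that range in every sample of the other lines. It was at 243.6 to 255.7 CPM in EZH2 Y641F, 247.7 to 261.9 in EZH2 A677G and 255.7 to 260.7 in the LOF line. All EZH2 A677G samples of LHX1 lay below those of EZH2 WT, while its EZH2 Y641F and LOF samples overlapped them. INA, KRT8 and KRT18 overlapped between EZH2 WT and each GOF line. The sum was also below EZH2 WT in the LOF line, where BOC samples overlapped those of EZH2 WT. PAX2 was at 0 in all EZH2 A677G samples and at most at 0.608 CPM in the others. The part of these markers in the result of BOC was not tested. Of 4 markers of fibroblasts, COL1A1 and LUM were in the table, at up to 9.94 and 3.30 CPM, and the other 2 were not analysed here, nor were 2 markers of endothelium and 3 of kidney tubules.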

How the data were processed

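RNA from 12 samples of 4 HEK293T lines was sequenced from stranded mRNA libraries. Per the labels and the study's methods, reads were trimmed with Trim Galore 0.6.5, aligned to GRCh38 with STAR 2.7.9a and quantified with Salmon 1.2.0. The deposited values are raw whole-number counts, 1 per symbol and sample, which the authors did not normalize. The step to counts per symbol, its filter and its strand setting are not given in the sources used here. The study used the exact test of edgeR 3.16.

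The analysis used edgeR 4.0.16 under R 4.3.3: TMM factors, the quasi-likelihood test on all 12 samples with 1 coefficient per line, and Benjamini-Hochberg adjustment over the 14263 genes tested. Left out were 175 genes at 0 in all samples of a line. Samples held 32137700 to 44562413 counts, and fitted intervals are at 95%. Promoter windows were taken from RefSeq and gene positions from GENCODE.

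The members and lists were chosen with earlier results of these data known. Named were all 9 members, genes of the pathway list called in any comparison, up to 25, the 5 genes most like BOC and the 3 most like another member that was called, by Pearson r on log2 CPM with a prior count of 2 and a mean log2 CPM of at least 1. The tests were checked on simulated data. Alternatives were edgeR's exact test, DESeq2 1.42.0, limma 3.58.1 voom, other scalings, filters and sample sets, a GC correction and a replicate block. Some genes of the lists are not reported here.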

Additional observations from a re-analysis of the deposited data

Results flagged for a closer look

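Among the 9 members and the 65 other pathway genes tested, the effects of the GOF and LOF mutants differed for 14, by edgeR's test of the GOF mean against the LOF line, with p-values adjusted by Benjamini-Hochberg. Of all 14263 genes tested, 8.75% were lower and 3.81% higher by the same test. Among the members these were BOC, with a log2 fold change of -0.63, and GAS1, with 0.17. BOC was lower in 6 of 6 GOF samples than in any LOF or EZH2 WT sample, as 5.41% of all genes tested were, while GAS1 samples overlapped.

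Among other genes of the pathway, 3 of the 5 reception genes were lower in the GOF lines, GPC5 by -0.97, HHIP by -0.63 and LRP2 by -0.39. The other 2, GPC3 among them, were not called. Of 4 genes for release of the ligand, 1 was lower and 3 were not called. It was SCUBE1, a secreted protein known to aid that release, at -0.93 (adjusted p = 0.0184 by edgeR), on 24 to 64 counts per sample. The call of HHIP was lost without replicate 2 of the LOF line (adjusted p = 0.0513) and that of SCUBE1 without its replicate 1 or 3 (adjusted p up to 0.108). SFRP1 was at -0.73, CCND1 at -0.25, GPR161 at -0.23, OLIG2 at -0.48, IGFBP6 at -1.04 and NEO1 at -0.18. Without replicate 1 of the LOF line OLIG2 and NEO1 were no longer past the threshold, with -0.29 and -0.14. IGFBP6 lost the call in 5 of 9 fits without a sample, those without replicate 3 of EZH2 Y641F, replicate 1 or 3 of EZH2 A677G or replicate 1 or 2 of the LOF line, with adjusted p up to 0.159, and among 10 alternatives with DESeq2 and thinned counts (adjusted p up to 0.0609). CDH2 was higher by 0.19 and PRKACA, the catalytic subunit of protein kinase A that phosphorylates GLI proteins, by 0.17 (adjusted p = 0.0488), a call that PRKACA kept, among fits without a sample, only without replicate 3 of EZH2 Y641F or replicate 2 of EZH2 A677G. It was also lost in 3 of 11 alternatives, those with upper-quartile factors, at least 10 counts in every sample and thinned counts (adjusted p up to 0.0854).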

How the results depend on the processing

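Over the alternatives, BOC kept its direction and its call in EZH2 Y641F (-0.66 to -0.61), in EZH2 A677G (-0.69 to -0.63) and for GOF against LOF (-0.65 to -0.62), and without single samples its ranges were -0.71 to -0.58, -0.77 to -0.62 and -0.68 to -0.60. Upper-quartile factors left 1 member called in EZH2 A677G, since GAS1 was lost. Without single samples the members called numbered 1 to 2 in EZH2 Y641F (2 without replicate 3 of EZH2 WT), 1 to 2 in EZH2 A677G, 0 to 0 in the LOF line, 0 to 0 between the GOF lines and 1 to 2 for GOF against LOF. Of the pathway list, the exact test called 17 genes in EZH2 A677G, 4 in the LOF line and 1 between the GOF lines. In the LOF line 4 were called with limma voom, 4 with only the groups compared, 1 with library totals, 1 with thinned counts and 1 with the replicate block, against 2. With genes at 0 kept, 2 were called between the GOF lines. Without single samples the list gave 5 to 13 calls in EZH2 Y641F (5 without replicate 2 of EZH2 WT or replicate 3 of EZH2 Y641F, 7 without replicate 1 of EZH2 WT or replicate 2 of EZH2 Y641F), 9 to 12 in EZH2 A677G, 0 to 1 in the LOF line, 0 to 1 between the GOF lines and 7 to 14 for GOF against LOF (7 without replicate 1 of the LOF line). The cause was not tested.

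Samples with the same replicate number did not deviate together, with 1 of 18 pairs correlated over 0.1, and 3 of 12 samples correlated best with their own number. Replicates differed most within EZH2 Y641F. Pairs of its samples had a chi-square of the counts per degree of freedom of 10.3 to 14.8, against 3.33 to 7.09 within the other lines. The main fit shared its estimate of a gene's spread across all lines. The part of this difference in the calls was not tested. With the replicate block, members called numbered 1 in EZH2 Y641F, 2 in EZH2 A677G, 0 in the LOF line, 0 between the GOF lines and 2 for GOF against LOF, the same as without it, and list genes 12, 12, 1, 0 and 12. With the longest transcript as length, BOC was at 1.49 CPM per kilobase in EZH2 WT. Member signs changed in 49 of 828 fits, and 0 of these passed the test. Over all genes, the exact test called 1849 genes in EZH2 A677G against 1219, and in the LOF line 88 lower and 58 higher against 23 and 20. There 139 were lower and 30 higher with genes at 0 kept, 55 and 44 with limma voom, and 48 and 38 with only the groups compared. Without single samples the LOF calls numbered 11 (without its replicate 1) to 36. The share of LOF calls that were lower, 53.5%, was 64.5% with library totals, 82.2% with genes at 0 kept and 35.3% without replicate 2 of EZH2 WT. Between the GOF lines 15 were lower and 163 higher with genes at 0 kept and 28 and 29 without replicate 2 of EZH2 Y641F, against 2 and 10, and DESeq2 called 18 in all. Without replicate 2 of EZH2 WT, 703 genes were called in EZH2 Y641F against 1095. Low counts limit GLI1, IGFBP6 and SCUBE1, the last with 24 to 64 counts per sample.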
